A study of Homo sapiens with 4 samples.

Results

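The keratin, tight junction, adherens junction, desmosome and epithelial surface genes form a panel of 38 genes of the 23605 gene symbols measured. They were listed by symbol, by a rule that uses no measured value, although earlier results of these data were known when the list was made: 9 keratins, 12 genes of claudins and the tight junction, 5 of the adherens junction, 7 of the desmosome and 5 surface and splicing regulators. The RNA came from LCC9, a human breast cancer line that resists tamoxifen and carries wild-type estrogen receptor alpha. Cells grew in phenol red-free IMEM with 5% charcoal-stripped serum and received vehicle (DMSO, 2 libraries) or A7, a compound that the labels call a BRCA1 mimetic (2 libraries), for 24 h. No source used here gives the dose of A7, or whether replicates were grown as separate cultures. The p-values below therefore reflect only how far these libraries differ, and that spread may be technical. The panel comes from 1 cell line, and fewer cells with a transcript and less of it per cell cannot be told apart in bulk RNA.

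Keratins are the intermediate filament proteins of epithelial cells. A filament needs a type I and a type II keratin in equal amounts, and simple glandular epithelium, including the luminal cells of the breast, is built mainly on the pair of KRT8 (type II) with KRT18 or KRT19 (type I). Tight junctions seal neighbouring cells through claudins and occludin bound to ZO scaffold proteins. Adherens junctions join cells through E-cadherin (CDH1) and the catenins, and desmosomes tie cadherins of their own through plakophilins and desmoplakin to the keratin filaments. ESRP1 and ESRP2 are RNA-binding proteins that set epithelial splice forms. SNAI and ZEB repressors bind the letters CACCTG in promoters such as that of CDH1 and are known for switching epithelial genes off.

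Promoter letters are shown for 3 members that appear below, CLDN4 and CLDN7 because the ratio of these claudins separated the groups, and DSP as the most abundant desmosome member. Each run is the 250 bases before an annotated start, from RefSeq, 5′ to 3′ on the gene's strand, with CACCTG (either strand) and the AP-1 letters TGANTCA (either strand) in capitals.
CLDN4 promoter, GRCh38.p14, chr7:73830746-73830995, plus strand: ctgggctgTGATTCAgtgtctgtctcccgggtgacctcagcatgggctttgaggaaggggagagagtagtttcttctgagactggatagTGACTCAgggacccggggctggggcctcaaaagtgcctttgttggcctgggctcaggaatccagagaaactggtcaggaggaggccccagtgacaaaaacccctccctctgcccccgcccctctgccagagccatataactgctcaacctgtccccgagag
CLDN7 promoter, GRCh38.p14, chr17:7262479-7262728, minus strand: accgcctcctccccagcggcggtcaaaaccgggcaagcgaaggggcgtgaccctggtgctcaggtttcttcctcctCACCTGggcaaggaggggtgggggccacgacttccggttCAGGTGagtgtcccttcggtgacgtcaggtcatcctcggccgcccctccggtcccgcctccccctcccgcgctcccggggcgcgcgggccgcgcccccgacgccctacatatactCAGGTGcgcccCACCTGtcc
DSP promoter, GRCh38.p14, chr6:7541421-7541670, plus strand: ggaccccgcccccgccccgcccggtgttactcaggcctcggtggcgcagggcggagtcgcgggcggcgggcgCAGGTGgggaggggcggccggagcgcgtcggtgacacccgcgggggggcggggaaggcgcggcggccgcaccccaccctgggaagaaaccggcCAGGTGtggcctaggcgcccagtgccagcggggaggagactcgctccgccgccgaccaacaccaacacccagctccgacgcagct
The CLDN4 stretch held 2 AP-1 matches and 0 of CACCTG. The CLDN7 stretch held 4 of CACCTG and 0 AP-1 matches, and the DSP stretch held 2 of CACCTG. For CLDN7 the stretch is at 1 of 2 listed starts, taken by the highest number of CACCTG matches, so its count is the upper one. The promoter table held 21 of the 38 members. CACCTG was found in 10 of these (47.6%) and in 20.6% of all 27305 genes listed, TGANTCA in 1 (4.76%, against 8.06%), and the GC box letters GGGCGG (either strand) in 17 (81%, against 46.2%). A gene was counted when any of its listed starts had a match, and the genes listed were not limited to expressed ones, so these shares were not compared like with like. These are matches of letters, not measured binding. SNAI1 and SNAI2 were listed at 0 in all 4 libraries, ZEB1 at 0 to 0.175 and ZEB2 at 0 to 0.0742.

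Values are FPKM (fragments scaled to transcript length and to library size) divided by a scale factor per library, called scaled FPKM, and differences are A7 minus vehicle on log2(scaled FPKM + 1). Genes with a mean FPKM of at least 1 over the 4 libraries were tested, and 30 of the 38 members were among these 8952 genes. Just inside this minimum lay PKP3 at a mean of 1.02, CLDN3 at 1.09 and PKP2 at 1.11, and just outside it TJP3 at 0.883 and DSC2 at 0.711. Depth was low, at roughly 2100000 and 2000000 fragments under vehicle, against 3800000 and 3000000 under A7, so the A7 libraries were the deeper ones. The luminal markers KRT8, KRT18, KRT19, EPCAM and CDH1 summed to 989 and 763 scaled FPKM with vehicle and 808 and 595 with A7, and all 5 are members of the panel. Of 8 basal markers, KRT5, KRT14, KRT17 and CNN1 were listed at 0 throughout, and the list summed to 12.6 to 17.0, mostly ACTA2. Leukocyte markers summed to 4.63 to 5.23, mostly CD68 and then LYZ, with PTPRC at 0. Endothelial markers summed to at most 0.0961 and adipocyte markers to at most 0.0439. Fibroblast markers summed to 0.416 and 0.421 with vehicle and to 11.1 and 0.963 with A7, so A7 replicate 1 stood apart, with DCN at 8.40, SPARC (counted as mesenchymal) at 7.98 and LUM at 1.08. The mesenchymal list, at 16.8 and 15.3 under vehicle, against 34.8 and 21.8 under A7, was also highest there. Its most abundant genes were higher in both A7 libraries. S100A4 stood at 10.3 and 8.23 under vehicle, against 16.5 and 14.2 under A7 (log2 difference 0.68, SE 0.18, limma adjusted p = 0.806). VIM stood at 6.18 and 6.24 against 8.38 and 6.83 (log2 difference 0.25, SE 0.18). ZEB1 and ZEB2, near 0, had lower means with A7. The part of the fibroblast and mesenchymal transcripts in the results was not tested. For some of the members described in most detail, values without A7 replicate 1 are given below. For others the difference without it was 0.28 for CTNNA1, 0.14 for F11R, -0.037 for CLDN7, 0.081 for CDH1, 0.26 for DSP and -0.089 for EPCAM.

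**Figure D1:**
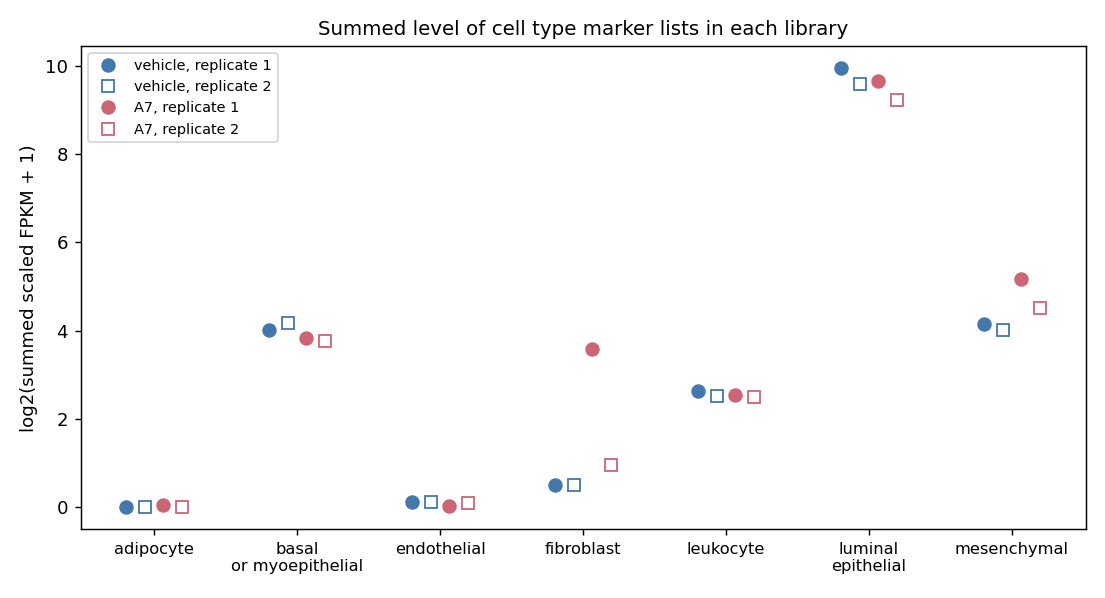
Summed scaled FPKM of 7 cell type marker lists, as log2(sum + 1) on the vertical axis, in each of the 4 libraries (filled circles replicate 1, open squares replicate 2). Luminal markers are the highest list in each library, and the fibroblast list is at 11.1 in A7 replicate 1 and below 1 in the other libraries.

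No member passed the test of A7 against vehicle. With limma and Benjamini-Hochberg adjustment over all 8952 genes, 0 of 30 members had an adjusted p under 0.05, where 0.0223% of all genes did (0.0112% higher and 0.0112% lower with A7), and the smallest adjusted p was 0.806. At an unadjusted p under 0.05 there was 1 member (3.33%), CLDN4, against 5.76% of all genes. The groups did not overlap in 9 members (30%), against 36.9% of all genes, with 7 higher with A7 (23.3%, against 18.3%) and 2 lower (6.67%, against 18.6%). Means were higher with A7 for 16 of the 30 members, where 49.7% of all genes were, and lower for 14. In these counts PKP2 and PKP3 (higher) passed the minimum only through A7, and CLDN3 (lower) only through vehicle. PKP2 is also among the 7 without overlap. The median difference was 0.029 on the log2 scale (-0.037 without A7 replicate 1), where the median over all tested genes was -0.0019. In 25 of the 30 the larger of the gaps within a pair of replicates exceeded the difference between the groups. The share of all tested genes where this held was not counted, so this count does not set the panel apart. The plot of differences shows that CLDN4 is the member whose interval leaves out 0. An exact permutation test of 2 against 2 libraries cannot give a two-sided p below 0.333, so none was used. With FPKM rescaled to a fixed sum per library (TPM), the median of all genes moved to 0.17 and that of the members to 0.23. On that scale the groups did not overlap in 14 members (46.7%), against 46.0% of all genes.

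**Figure D2:**
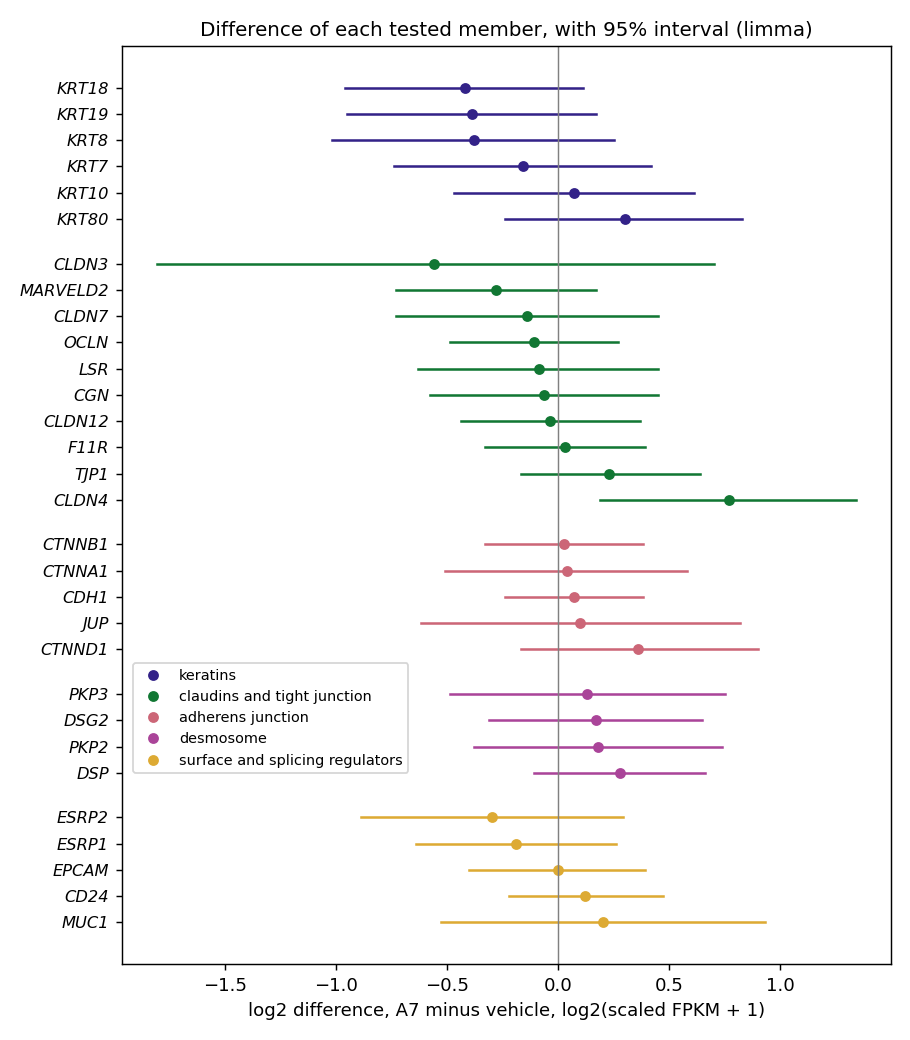
Difference of each of the 30 tested members, A7 minus vehicle, on the log2(scaled FPKM + 1) scale (points), with its 95% interval from limma (lines), coloured by class. The interval of CLDN4 runs from 0.19 to 1.34, and the intervals of the other 29 members cross 0.

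The keratins were dominated by the simple-epithelium set, and these 3 genes had lower means with A7. KRT8, KRT18 and KRT19 made up 98.7% and 98.2% of the summed FPKM of the 9 keratins with vehicle and 98.1% and 97.7% with A7. KRT19, the smallest type I keratin, was listed at 429 and 327 scaled FPKM in the vehicle libraries, against 347 and 236 in the A7 libraries. Group means were 378 ± 72.3 and 291 ± 78.8 (SD, n = 2 each), a log2 difference of -0.39 (SE 0.23, 95% interval -0.95 to 0.17, limma adjusted p = 0.806), and the groups overlapped. KRT18, the usual partner of KRT8, stood at 315 and 236 under vehicle, against 240 and 172 under A7. Its log2 difference was -0.42 (SE 0.22, 95% interval -0.96 to 0.11, limma adjusted p = 0.806). KRT8 stood at 105 and 73.4 against 82.3 and 54.5, with a log2 difference of -0.38 (SE 0.26). All 3 genes showed one order of libraries: vehicle replicate 1 was highest, then came A7 replicate 1, vehicle replicate 2 and A7 replicate 2. Replicates differed by 0.39 to 0.59 on the log2 scale in these genes, about as much as the groups did or more. The sign of the 3 differences held under each scaling tried, but their size depended on the scaling and on single libraries. With TPM the differences of KRT8, KRT18 and KRT19 were -0.16, -0.20 and -0.16, where the median of all genes was 0.17. After quantile normalization they were -0.26, -0.26 and -0.25. Without vehicle replicate 2 the differences of KRT8, KRT18 and KRT19 were -0.64, -0.63 and -0.58. Without A7 replicate 2 the differences of KRT8, KRT18 and KRT19 were -0.091, -0.18 and -0.11, without vehicle replicate 1 they were -0.13, -0.21 and -0.19, and without A7 replicate 1 they were -0.68, -0.66 and -0.67.

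The proportions of these keratins to each other varied far less than their levels. The ratio of KRT18 to KRT8 FPKM within a library was 3.01 and 3.21 under vehicle, against 2.91 and 3.16 under A7. That of KRT19 to KRT8 was 4.10 and 4.45 under vehicle, against 4.22 and 4.32 under A7, so both ratios overlapped between groups. Type I keratins summed to 6.63 and 7.07 times the type II keratins with vehicle and 6.54 and 6.74 times with A7. FPKM are per length, so transcripts of type I keratins outnumbered those of type II in each library. Exons of KRT8 and KRT18 overlap on opposite strands in GENCODE 29, and the library kit is not stated to mark the strand. KRT18 also has a near-identical pseudogene copy, KRT18P11 (95.3% identity), so a part of its reads could be placed elsewhere. Against CDH1, the epithelial cadherin, KRT8 stood at 1.60 and 1.10 under vehicle, against 1.19 and 0.778 under A7.

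**Figure D3:**
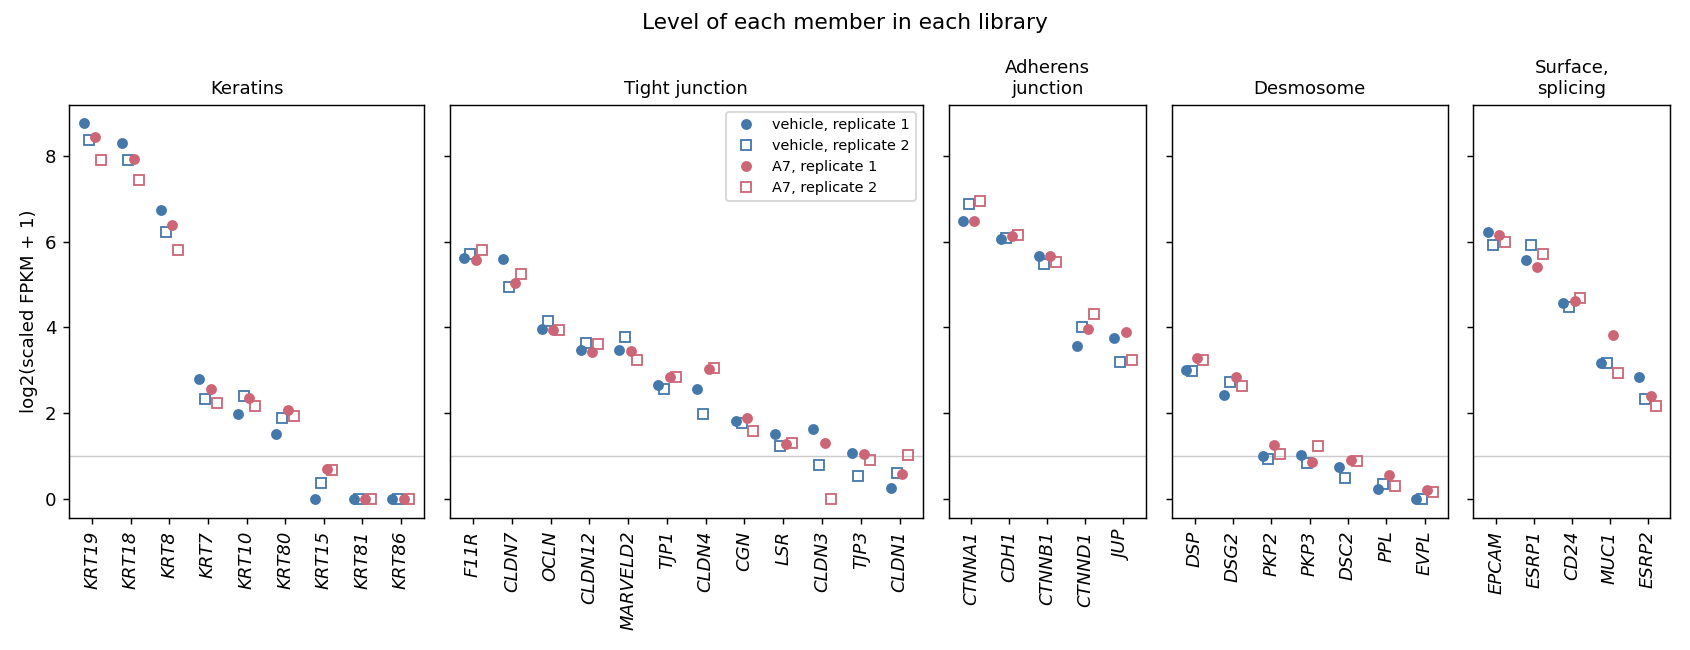
Level of each of the 38 members in each library, as log2(scaled FPKM + 1), by class and in falling order of the mean (filled circles replicate 1, open squares replicate 2, blue vehicle, red A7). KRT19 and KRT18 are the highest members, KRT81 and KRT86 lie at 0, and the grey line marks 1 scaled FPKM.

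The other keratins were low. KRT7, a type II keratin of glandular ducts, stood at 5.99 and 4.04 under vehicle, against 4.97 and 3.73 under A7, in the order of libraries seen for KRT8. KRT10, the type I keratin of differentiating skin, stood at 2.95 and 4.33 against 4.12 and 3.54. KRT80, a type II keratin found near junctions, was listed at 1.88 and 2.73 under vehicle, against 3.23 and 2.84 under A7 (log2 difference 0.30, SE 0.22, limma adjusted p = 0.825). It was the only tested keratin without overlap of the groups, and its difference was 0.11 without vehicle replicate 1, 0.48 without vehicle replicate 2 and 0.23 without A7 replicate 1. KRT15, a basal and stem cell keratin, was listed at 0 and 0.295 under vehicle, against 0.634 and 0.593 under A7, under the minimum. The hair keratins KRT81 and KRT86, near-identical to each other in sequence (96.6%), were listed at 0 in all libraries. The median over the 6 tested keratins was -0.27, against -0.0019 for all genes. It was -0.041 without A7 replicate 2, -0.14 without vehicle replicate 1 and -0.49 without either of the other libraries. With TPM it was -0.071, against 0.17 for all genes. Of 24 further keratins none reached the minimum and 16 were listed at 0 in each library, among them KRT5, KRT14, KRT17 and KRT23.

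Of the claudins, CLDN4 had the smallest p of the panel, with a higher mean under A7, and the much more abundant CLDN7 overlapped between the groups. CLDN4, a barrier-forming claudin, was listed at 4.91 and 2.99 scaled FPKM in the vehicle libraries, against 7.22 and 7.31 in the A7 libraries. Both A7 libraries lay above both vehicle libraries, 1.84-fold by the means (3.95 ± 1.36 and 7.27 ± 0.0595, SD, n = 2 each). The log2 difference was 0.77 (SE 0.23, 95% interval 0.19 to 1.34, unadjusted p = 0.0170, limma adjusted p = 0.806), so CLDN4 did not pass over all genes. It lay between 0.48 without vehicle replicate 2 and 1.05 without vehicle replicate 1, and was 0.77 without A7 replicate 1. CLDN7, the most abundant claudin of the panel, stood at 47.6 and 29.8 under vehicle, against 31.7 and 36.7 under A7 (log2 difference -0.14, with an SE of 0.24 and limma adjusted p = 0.929), and the groups overlapped. The vehicle replicates differed in both claudins in the same direction. The ratio of CLDN4 to CLDN7 within a library, a quantity chosen after its values were seen, was 0.103 and 0.10 under vehicle, against 0.228 and 0.199 under A7. CLDN7 made up 73.3% and 65.4% of the summed claudin FPKM of the panel with vehicle and 62.4% and 65.2% with A7. Exons of CLDN7 overlap those of ELP5 on the other strand, and without strand information reads from the shared stretch would not tell the genes apart.

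**Figure D4:**
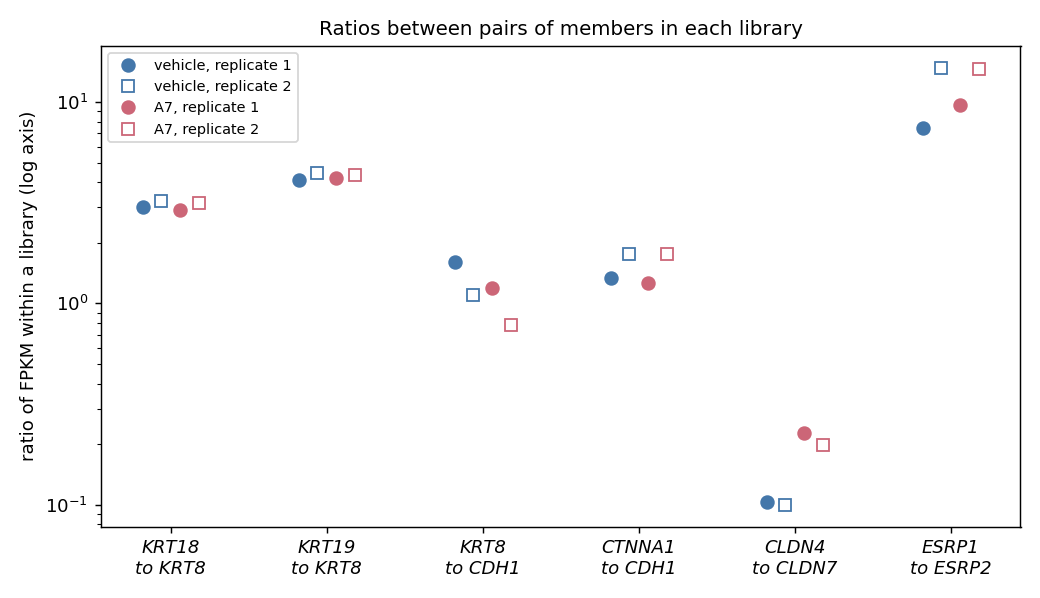
Ratios of FPKM between 6 pairs of members within each library, on a log axis (filled circles replicate 1, open squares replicate 2, blue vehicle, red A7). KRT18 to KRT8 stays between 2.91 and 3.21, CLDN4 to CLDN7 is near 0.10 with vehicle and 0.199 to 0.228 with A7, and CTNNA1 to CDH1 and ESRP1 to ESRP2 are higher in replicate 2 of both groups.

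F11R, which encodes the adhesion molecule JAM-A, was the most abundant tight junction member. It stood at 48.3 and 51.1 under vehicle, against 46.9 and 55.0 under A7 (log2 difference 0.031, SE 0.15, 95% interval -0.33 to 0.39, limma adjusted p = 0.978). MARVELD2, the tricellulin of tricellular contacts, was lower in both A7 libraries, at 10.2 and 12.8 against 9.94 and 8.54. Its log2 difference was -0.28 (SE 0.18, 95% interval -0.73 to 0.17, limma adjusted p = 0.809), and the nearest libraries of the 2 groups almost met. It was -0.13 without vehicle replicate 2, -0.43 without vehicle replicate 1, -0.38 without A7 replicate 1 and -0.18 without A7 replicate 2. OCLN, occludin, stood at 14.5 and 16.7 against 14.3 and 14.4. TJP1, the scaffold ZO-1, was listed at 5.28 and 4.96 under vehicle, against 6.22 and 6.17 under A7 (log2 difference 0.23, SE 0.16, limma adjusted p = 0.821), higher in both A7 libraries. CLDN12 stood at 10.1 and 11.5 against 9.83 and 11.2, the scaffold CGN (cingulin) at 2.51 and 2.44 against 2.70 and 1.99, and LSR, the angulin of tricellular contacts, at 1.89 and 1.38 against 1.44 and 1.5. These 3 overlapped. CLDN3 was listed at 2.13 and 0.727 under vehicle, against 1.5 and 0 under A7, which is roughly 6, 2, 7 and 0 fragments. Its log2 difference had an SE of 0.51. With an A7 mean of 0.751, CLDN3 passed the minimum only through the vehicle libraries, the group where it was higher. CLDN1 (0.205 and 0.521 against 0.508 and 1.06) and the ZO-3 gene TJP3 (1.11 and 0.448 against 1.08 and 0.883) were under the minimum. Among the 10 tested members the mean was higher for 3 and lower for 7, CLDN3 among the latter. Their median was -0.076, and 0.094 with FPKM rescaled to TPM, where the median of all genes moved from -0.0019 to 0.17.

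Among the 37 other tight junction and polarity genes looked up, 12 were tested and 0 passed over all genes. The means of 8 were higher and of 4 lower with A7, with a median of 0.037. PARD6B, a polarity protein, was by far the most abundant at 720 and 1002 under vehicle, against 721 and 837 under A7, and MARVELD3, a relative of occludin, stood at 16.9 and 17.4 against 18.6 and 13.6. AMOTL2, an angiomotin-like scaffold, had the smallest p. It stood at 0.645 and 0.654 under vehicle, against 1.60 and 1.46 under A7 (log2 difference 0.62, SE 0.22, limma adjusted p = 0.806). With a mean FPKM of 1.1, AMOTL2 passed the minimum only through the A7 libraries, so its place among the tested genes depended on the group where it was higher.

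None of the 5 adherens junction genes passed, and 4 of them differed by less than 0.1 on the log2 scale (by 0.25 to 0.29 with TPM, where the median of all genes was 0.17). CDH1, E-cadherin, was listed at 65.6 and 66.8 under vehicle, against 69.0 and 70.1 under A7. The groups did not overlap, but the means of 66.2 ± 0.833 and 69.5 ± 0.767 (SD, n = 2 each) were 1.05-fold apart, and the log2 difference was 0.070 (SE 0.12, 95% interval -0.24 to 0.38, limma adjusted p = 0.932). CTNNA1, alpha-catenin, which links the complex to actin, stood at 87.7 and 117 under vehicle, against 87.7 and 123 under A7 (log2 difference 0.039, SE 0.22, limma adjusted p = 0.982). In both groups it was the library numbered 2 that was higher. CTNNB1, beta-catenin, stood at 49.3 and 43.5 against 49.4 and 45.1 (log2 difference 0.027, SE 0.14).

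CTNND1, p120-catenin, which holds cadherin at the membrane, had the smallest p of this class. It was listed at 10.9 and 15 under vehicle, against 14.7 and 19.0 under A7 (log2 difference 0.36, SE 0.22, 95% interval -0.17 to 0.90, limma adjusted p = 0.806), and vehicle replicate 2 lay above A7 replicate 1. The difference was 0.15 without vehicle replicate 1, 0.58 without vehicle replicate 2, 0.54 without A7 replicate 1 and 0.19 without A7 replicate 2. The read-through transcript TMX2-CTNND1 shares its exons. JUP, plakoglobin, which serves adherens junctions and desmosomes, stood at 12.6 and 8.16 against 13.9 and 8.52, with the libraries numbered 1 above those numbered 2 in both groups. Means of 5 of 5 members were higher with A7, with a median of 0.070. The signs of CTNNA1, CTNNB1 and JUP each turned under 2 of the 4 omissions of a single library. Of the 22 other adherens junction genes 10 were tested, 8 with a higher and 2 with a lower mean, and 0 passed. LIMA1, an actin-bundling protein, stood at 8.43 and 9.55 against 9.32 and 11.8, and VCL, vinculin, at 7.16 and 6.03 against 7.08 and 6.65. CDH3, P-cadherin, had the smallest p, at 1.96 and 1.51 under vehicle, against 2.82 and 2.29 under A7 (log2 difference 0.38, SE 0.21, limma adjusted p = 0.806).

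Among the desmosome genes, DSP and DSG2 lay near the middle of the tested genes by level (percentiles 58 and 48.3), and the others were low. The tested ones had slightly higher means with A7, among them PKP2 and PKP3, which passed the minimum only through the A7 libraries. DSP, desmoplakin, which anchors keratin filaments, was listed at 7.02 and 6.88 scaled FPKM in the vehicle libraries, against 8.79 and 8.49 in the A7 libraries. Replicates lay within 0.045 of each other on the log2 scale, the groups did not overlap, and the log2 difference was 0.28 (SE 0.16, 95% interval -0.11 to 0.66, limma adjusted p = 0.806). DSG2, the desmoglein of simple epithelium, stood at 4.38 and 5.60 against 6.19 and 5.23 (log2 difference 0.17, SE 0.19, limma adjusted p = 0.888), and an antisense gene, DSG2-AS1, overlaps its exons. The difference of DSG2 was 0.020 without vehicle replicate 1, 0.31 without vehicle replicate 2, 0.063 without A7 replicate 1 and 0.27 without A7 replicate 2. The plakophilins, which link the cadherins to desmoplakin, stood at 1.01 and 0.930 against 1.41 and 1.07 for PKP2, and at 1.04 and 0.786 against 0.837 and 1.37 for PKP3. PKP2 did not overlap between the groups, whereas PKP3 did, and the difference of PKP2 went from 0.18 to 0.073 without A7 replicate 1 and to 0.29 without A7 replicate 2. Vehicle means of PKP2 and PKP3, at 0.97 and 0.911, lay under the minimum, which these genes passed only through the A7 libraries.

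The other 3 desmosome members lay under the minimum. DSC2, desmocollin 2, was listed at 0.675 and 0.413 under vehicle, against 0.893 and 0.848 under A7. PPL, periplakin, stood at 0.179 and 0.271 against 0.487 and 0.239. EVPL, envoplakin, had 0 in either vehicle library and 0.153 and 0.124 in the A7 libraries, which is roughly 4 and 2 fragments, in the more deeply sequenced group. Means of 4 of 4 tested members were higher with A7. PKP2 and PKP3 among them passed the minimum only through the A7 libraries. The filter thus favoured their direction, and the count is not read as a result. The median of the 4 was 0.17. It was 0.16 without A7 replicate 1, 0.28 without A7 replicate 2 and 0.27 with a pseudocount of 0.1. With TPM it was 0.30, where the median of all genes was 0.17. Of 18 other desmosome and hemidesmosome genes 4 were tested, 3 with a higher and 1 with a lower mean, and 0 passed. PNN, a protein of nuclear speckles first described at desmosomes, stood at 26.3 and 25.3 against 29.9 and 26.6, and PKP4, a plakophilin relative, at 11.4 and 11.6 against 12.1 and 9.52. DST, dystonin, which binds filaments, had the smallest p, at 3.61 and 3.74 under vehicle, against 4.64 and 4.48 under A7 (log2 difference 0.25, SE 0.17, limma adjusted p = 0.817).

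Surface and splicing regulators did not share a direction, with 2 higher and 3 lower means and a median of -0.0025. That median turned to 0.22 with TPM, where the median of all genes was 0.17, and to 0.10 after quantile normalization. EPCAM, the epithelial adhesion molecule, was listed at 74.0 and 59.7 under vehicle, against 70.5 and 62.4 under A7. The difference was -0.0025 (SE 0.16, 95% interval -0.40 to 0.39, limma adjusted p = 0.998), and turned positive with TPM and after quantile normalization. ESRP1 stood at 46.6 and 59.7 against 41.6 and 51.2 (log2 difference -0.19, SE 0.18, limma adjusted p = 0.870). Its difference was -0.36 without vehicle replicate 1, -0.013 without vehicle replicate 2, -0.043 without A7 replicate 1 and -0.33 without A7 replicate 2. With TPM it turned to 0.032. ESRP2 stood at 6.24 and 4.02 against 4.32 and 3.50 (log2 difference -0.30, SE 0.24, 95% interval -0.89 to 0.29, limma adjusted p = 0.843), and exons of NFATC3 overlap it on the other strand. That difference was -0.038 without vehicle replicate 1, -0.57 without vehicle replicate 2, -0.42 without A7 replicate 1 and -0.18 without A7 replicate 2. The ratio of ESRP1 to ESRP2 was 7.46 and 14.8 under vehicle, against 9.64 and 14.6 under A7, so it was higher in the library numbered 2 of both groups. CD24, a small surface glycoprotein, stood at 22.7 and 21.4 against 23.5 and 24.8, without overlap (log2 difference 0.12, SE 0.14, limma adjusted p = 0.884). MUC1, the membrane mucin of luminal cells, was listed at 8.06 and 8.09 under vehicle, against 13.1 and 6.69 under A7. The vehicle libraries were nearly equal and the A7 libraries lay on either side of them. Its difference turned from 0.20 to -0.24 without A7 replicate 1. That is also the library with the fibroblast transcripts, and a link between the 2 was not tested.

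Of 28 further epithelial surface and regulator genes 17 were tested, and 0 passed over all genes. The means of 12 were higher and of 5 lower with A7, with a median of 0.11. AP1M2, an adaptor of epithelial sorting, was the most abundant, at 103 and 105 against 97.0 and 113. RAB25, an epithelial GTPase of recycling endosomes, stood at 66.7 and 59.4 under vehicle, against 49.6 and 48.4 under A7, lower in both A7 libraries (log2 difference -0.36, SE 0.14, limma adjusted p = 0.806). ERBB3, a receptor of the EGF receptor family, had the smallest p, at 14.2 and 14.7 under vehicle, against 20.1 and 18.9 under A7 (log2 difference 0.41, SE 0.14, limma adjusted p = 0.806). Over the 43 tested genes of these further lists, 4 had an unadjusted p under 0.05, AMOTL2 among them, where 5.76% of all tested genes did.

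In 20 of the 30 tested members (66.7%) replicate 1 lay on the same side of replicate 2 in both groups, against 59.1% of all tested genes. KRT8, KRT18, KRT19, JUP and ESRP2 were higher in the libraries numbered 1, and CTNNA1, CTNND1 and ESRP1 in those numbered 2. The labels do not say that a number marks a shared batch or day.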

How the data were processed

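Per the labels' protocols, cDNA of 4 LCC9 total RNA samples came from a SMARTer kit and was sheared and amplified into libraries. Per the file headers, the authors deposited FPKM in 1 table a library. The submitters' processing notes name TopHat, Cufflinks 2.2.1, CASAVA 1.8.2 and GRCh37 without saying what each did. No source used here gives the annotation or says how reads with several matches were placed.

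Of 23619 lines a table, 14 whose symbol was a bare number (at most 0.00539% of a library's FPKM) were left out. Summed FPKM ran from 1189056 to 1473540. Libraries were divided by their median ratio to the geometric mean (1.002 and 1.014 for vehicle, 0.9899 and 1.02 for A7). Genes with a mean FPKM of at least 1 entered limma 3.58.1 under R 4.3.3 (eBayes with a trend, 2 residual and 3.89 prior degrees of freedom) on log2(scaled FPKM + 1), two-sided, at an adjusted p threshold of 0.05. This scale understates the change of low genes. The fit was tested on simulated data.

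Relative depth was read from the commonest ratio of low values, and fragments were estimated with GENCODE 29 transcript lengths, so they are rough. Copies were sought with blastn 2.17.0 (identity of at least 95% over at least 50%).

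The members, lists and rule for named genes were chosen with earlier results of these data known. The rule gives, per class, the 2 members with the highest mean and the 2 with the smallest p, and per other list the 2 highest and the 1 with the smallest p. No protein sequences were used here. Alternatives were a pseudocount of 0.1, no filter, TPM, quantile normalization, a replicate block and leaving out each library.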

Additional observations from a re-analysis of the deposited data

How the results depend on the processing

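No member passed under any of the 9 alternatives, and 239 of 270 member values kept their sign and side of the threshold. Of these, the 30 values with no filter and the 30 with a replicate block could not change sign. Both settings leave the differences as they were. Over all genes the count called was 2, and 1 with a pseudocount of 0.1, 0 with no filter, 0 with a replicate block and 7 to 11 when 1 library was left out, where a lone library is assumed to vary like the other group. Libraries with the same number had deviations correlated at 0.0906 across genes, and with 2 pairs the numbers do not show pairing. The block changed no member's call, and in this balanced design it cannot change a sign. Members without overlap of the groups numbered 9 (30%, against 36.9% of all genes), and 14 with FPKM rescaled to TPM (46.7%, against 46.0%). They numbered 12 with no filter and 11 after quantile normalization, where the share over all genes was not counted.

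With TPM the median over all genes went from -0.0019 to 0.17, and differences turned for KRT7 (0.019), CLDN7 (0.077), CLDN12 (0.17), OCLN (0.10), CGN (0.086), LSR (0.040), EPCAM (0.22) and ESRP1 (0.032). After quantile normalization EPCAM was at 0.10. Leaving out 1 library turned 14 members, with ranges of -0.4 to 0.076 for KRT7, -0.15 to 0.29 for KRT10, -1.22 to 0.11 for CLDN3, -0.47 to 0.19 for CLDN7, -0.12 to 0.052 for CLDN12, -0.22 to 0.091 for CGN, -0.082 to 0.14 for F11R, -0.23 to 0.052 for LSR, -0.21 to 0.28 for CTNNA1, -0.062 to 0.12 for CTNNB1, -0.23 to 0.42 for JUP, -0.054 to 0.31 for PKP3, -0.16 to 0.15 for EPCAM and -0.24 to 0.64 for MUC1. OCLN, which kept its sign, ran from -0.20 to -0.011. Among members with a value, the fewest estimated fragments over the 4 libraries were those of EVPL (6), CLDN3 (15), PPL (21) and CLDN1 (23).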
